A study of Homo sapiens with 6 samples.

Results

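The cell cycle cyclins are 9 genes, CCND1, CCND2, CCND3, CCNE1, CCNE2, CCNA2, CCNB1, CCNB2 and CCNF. They were chosen by name, among 19775 genes read by the array, and every probe set that the platform annotation assigns to 1 of them alone was kept. That gave 21 of 54613 tested probe sets, at least 1 for each gene. A probe set is a group of short probes that report 1 value, so a gene can be read several times. Expression was measured on 6 arrays of BL2, a human Burkitt lymphoma cell line, grown in complete RPMI. Of these, 3 cultures were electroporated with scrambled siRNA and 3 with a pool of 4 siRNAs against LEF1, which encodes a transcription factor that beta-catenin binds when the Wnt pathway is active. Each of 3 labelled batches held 1 culture of each group, and the time between electroporation and harvest is not given in the sources used here. The comparison asks which cyclin transcripts differed once LEF1 was lowered in a lymphoma line that divides rapidly.

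Cyclins are the regulatory partners of cyclin-dependent kinases, and most are made and destroyed within each division cycle. D-type cyclins activate CDK4 and CDK6 in G1, E-type cyclins activate CDK2 at entry into S phase, cyclin A2 acts in S and G2, and B-type cyclins activate CDK1 for mitosis. Cyclin F, the product of CCNF, activates no kinase and instead serves a ubiquitin ligase as its substrate-binding subunit. Burkitt lymphoma cells rely mainly on cyclin D3 among the D-type cyclins, as germinal-centre B cells do. Genes of the late cycle are commonly regulated through CCAAT boxes, bound by NF-Y, and a cell cycle homology region (CHR), bound by the DREAM and MYB-MuvB complexes.

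The promoters of the late cyclins are shown because these genes share that arrangement and because LEF1, the factor lowered here, binds DNA. Each line is the 250 bases before the RefSeq start in GRCh38.p14, written 5′ to 3′ on the gene's strand, with matches in capitals. They lie at chr4:121823884-121824133 on the minus strand and at chr5:69166900-69167149, chr15:59104896-59105145 and chr16:2429197-2429446 on the plus strand.
CCNA2: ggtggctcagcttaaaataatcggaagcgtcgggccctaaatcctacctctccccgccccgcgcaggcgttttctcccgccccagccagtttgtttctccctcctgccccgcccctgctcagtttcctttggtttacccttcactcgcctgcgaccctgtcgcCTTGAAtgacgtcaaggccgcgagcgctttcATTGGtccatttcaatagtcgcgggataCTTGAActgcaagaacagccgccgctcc
CCNB1: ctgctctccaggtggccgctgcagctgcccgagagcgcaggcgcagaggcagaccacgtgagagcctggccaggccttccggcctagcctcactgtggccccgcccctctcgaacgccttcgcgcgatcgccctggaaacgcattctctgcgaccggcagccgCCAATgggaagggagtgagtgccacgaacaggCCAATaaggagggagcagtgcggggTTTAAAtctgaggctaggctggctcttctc
CCNB2: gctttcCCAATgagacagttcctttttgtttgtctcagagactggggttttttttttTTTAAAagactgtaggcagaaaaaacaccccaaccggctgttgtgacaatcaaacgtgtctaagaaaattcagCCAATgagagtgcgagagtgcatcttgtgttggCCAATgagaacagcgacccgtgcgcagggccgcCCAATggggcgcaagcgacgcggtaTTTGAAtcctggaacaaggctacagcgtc
CCNF: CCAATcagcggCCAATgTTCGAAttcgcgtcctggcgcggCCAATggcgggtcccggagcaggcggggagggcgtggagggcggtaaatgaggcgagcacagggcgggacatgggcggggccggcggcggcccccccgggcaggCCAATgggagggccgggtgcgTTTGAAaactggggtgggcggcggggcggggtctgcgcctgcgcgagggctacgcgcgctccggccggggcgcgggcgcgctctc
The letters searched were CCAAT for the CCAAT box, and TTTGAA, its variant TTTAAA, its variant TTCGAA or its variant CTTGAA for the CHR. For E2F they were TTTGGCGC and the variants TTTCCCGC, then TTTCGCGC, then TTTGCCGC, and for TCF/LEF CTTTGAA and, as the alternative, CTTTGAT. Both strands were read in windows from 250 bases before to 50 after the start, and a TCF/LEF match to CTTTGAA also counts as a CHR match to TTTGAA.

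RefSeq windows matched 6 of the 9 cyclins with 8 starts, of which CCND3 had 3. Matches to CCAAT numbered 4 in CCNB2, 4 in CCNF, 2 in CCNB1 and 1 in CCNA2, where it reads ATTGG on the gene's strand. All 4 late cyclins also held a CHR match, nearest the start CTTGAA in CCNA2, TTTAAA in CCNB1, and TTTGAA in CCNB2 and CCNF. That match began at -28 in CCNA2, -30 in CCNB1, -29 in CCNB2 and -85 in CCNF. The nearest CCAAT box began at -56, -55, -54 and -106. Of 35116 windows in the table, 34.6% held a CCAAT box, 32.2% a CHR match and 12.4% both. CCND3 had a CCAAT box at 2 of 3 starts and no CHR match, and CCNE1 had a TTTAAA match at -28 and no CCAAT box. None of the 8 windows held the E2F or TCF/LEF letters, which were present in 3.31% and 6.86% of all windows. That says only that these letters are not in these windows. CCND1, CCND2 and CCNE2 are named only.

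**Figure D1:**
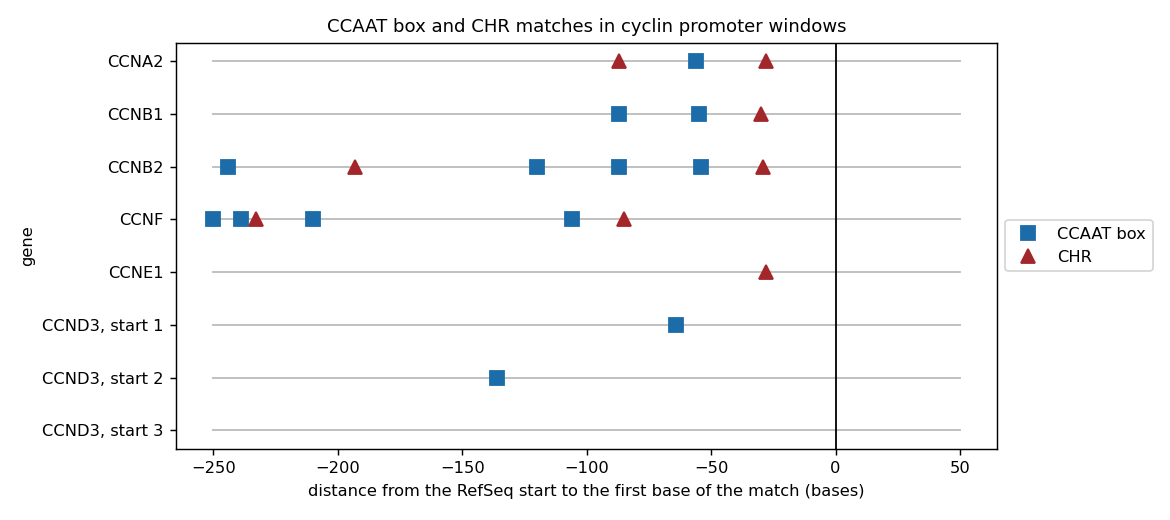
Matches to the CCAAT box (squares) and the CHR (triangles) in windows around RefSeq starts of 6 cyclins, by distance in bases from the start (vertical line at 0). In CCNA2, CCNB1 and CCNB2 a CHR match lies between -30 and -28 with a CCAAT box between -56 and -54, and CCNF has both farther upstream.

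LEF1 itself fell in every batch. At the brightest of its probe sets, log2 expression was 11.04 ± 0.43 (SD, n = 3) with scrambled siRNA and 8.32 ± 0.30 with LEF1 siRNA, and the batch differences were -2.87, -2.49 and -2.78. B cell markers were present, with CD79A, CD79B, MS4A1, PAX5 and CD22 between percentile 94.0 and 99.6 of probe set levels. None of these 5 passed in either direction, at a limma adjusted p under 0.05 with batch as block. By that rule 1.70% of all genes fell and 6.73% rose. After quantile normalization or cyclic loess 1 of the 5 rose, against 5.05% and 5.29% of all genes. Under poly-A spike-in scaling 1 fell, against 13.9%. Of the 15 markers of T and NK, myeloid, fibroblast and epithelial cells, 1 passed, NCAM1, which fell by 0.25. Means over the markers of these lists ran from 6.34 to 7.36 on all arrays, near the median of 6.91 over all probe sets, and COL1A1 stood highest among them at percentile 75.6. Of 4 germinal-centre and Burkitt markers, MME and TCL1A fell, by 0.43 and 0.37, and the part of cell identity in the cyclin values was not tested. Log2 values near the lower end of their range hold mostly background, so that weakly expressed genes show compressed differences. Brightness depends on the probes, so levels are compared between arrays and not between probe sets.

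At 5 of the 21 cyclin probe sets, 1 each of CCND3, CCNE2, CCNA2, CCNB2 and CCNF, values fell with LEF1 siRNA when batch entered the limma fit as a block, and 0 rose. Over all probe sets 1.51% fell and 4.58% rose by the same rule, a Benjamini-Hochberg adjusted p under 0.05 over 54613 probe sets. All 5 were among the 13 cyclin probe sets above the median level, and dim probe sets are seldom called. With only probe sets above the median level fitted, 894 fell and 2571 rose, against 827 and 2501 among all 54613. The share that fell was thus larger among bright probe sets, and the same 5 cyclin probe sets fell. Without block 0 cyclin probe sets passed, against 0.0183% of all probe sets (10 of 54613), and 4 had an unadjusted limma p under 0.05, against 7.84%. The lowest limma adjusted p of a cyclin without block was 0.170, so the calls rest on comparing cultures within a batch. By values alone, 9 of 21 were lower with LEF1 siRNA in all 3 batches, against 14.4% of all probe sets, and 3 were higher in all 3, against 22.1%. At 3 the groups did not overlap, all lower, against 4.59% of all probe sets. In RNA of whole cultures, fewer cells in a phase of the cycle and less transcript per cell cannot be told apart.

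**Figure D2:**
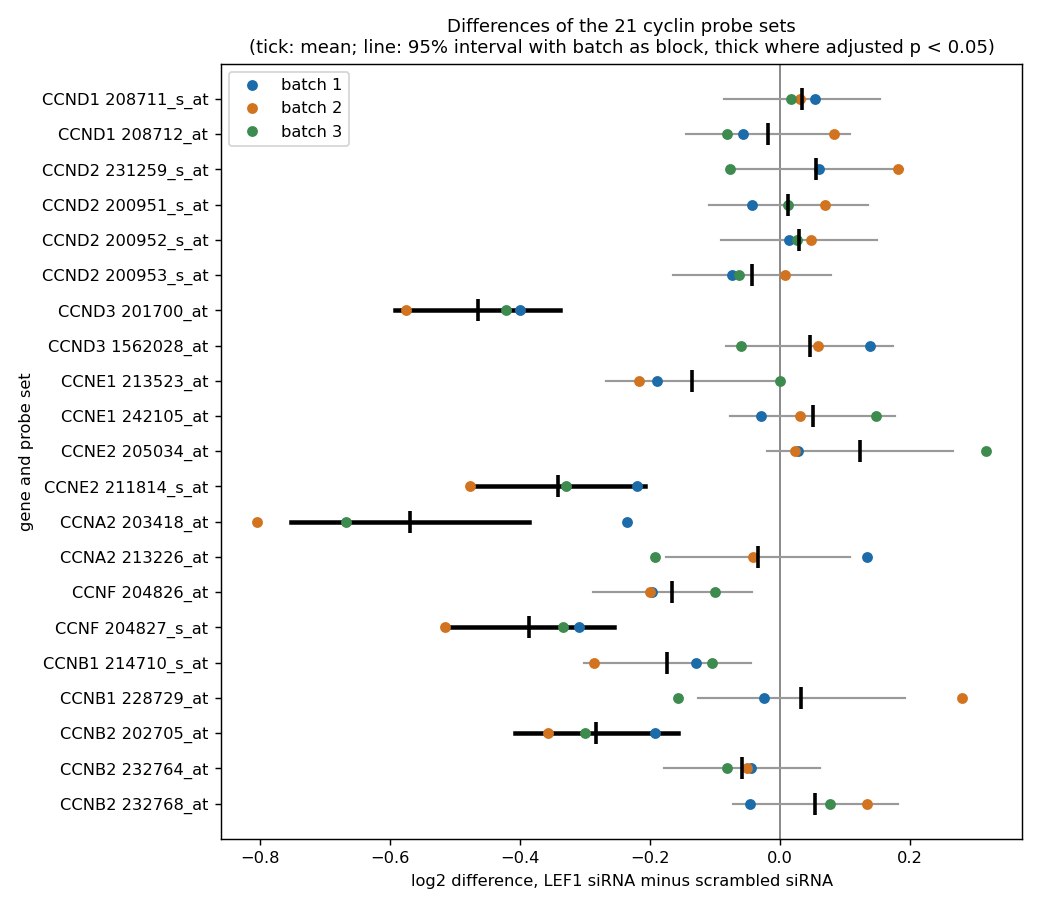
Log2 differences, LEF1 siRNA minus scrambled siRNA, at the 21 cyclin probe sets from G1 to mitosis: points are the 3 batches, ticks the mean, and lines the 95% limma interval with batch as block, thick where the adjusted p is under 0.05. The 5 thick intervals, of CCND3, CCNE2, CCNA2, CCNF and CCNB2, lie wholly below 0, while other probe sets of the same genes lie nearer 0.

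Among the D-type cyclins of G1, only CCND3 had a bright probe set. Its probe set 201700_at read 11.03, 10.96 and 11.40 with scrambled siRNA and 10.63, 10.38 and 10.98 with LEF1 siRNA in batches 1, 2 and 3. The groups overlap because batch 3 was high with both siRNAs, yet LEF1 siRNA was lower within each batch. CCND3 at 201700_at thus fell by 0.47 on the log2 scale, with 72.4% of the signal left (95% interval with batch as block -0.59 to -0.34, limma adjusted p = 0.00052; 0.481 without block). The other CCND3 probe set, 1562028_at, was dim at 7.03 ± 0.05 and 7.08 ± 0.14, and its difference of 0.05 had an interval of -0.08 to 0.17 with batch as block.

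CCND1 and CCND2, which encode the remaining D-type cyclins, read below the median level at all 6 of their probe sets. CCND1 read 6.70, 6.66 and 6.67 with scrambled siRNA and 6.75, 6.69 and 6.69 with LEF1 siRNA at its brighter probe set, 208711_s_at. Its dimmer one, 208712_at, lay at percentile 9.72 of all levels. Differences of the 2 CCND1 probe sets were 0.03 and -0.02, with intervals with batch as block of -0.09 to 0.15 and -0.15 to 0.11. CCND2 read between 6.06 and 6.76 over all arrays and its 4 probe sets. Its differences ran from -0.04 to 0.05, and the widest of the 4 intervals with batch as block reached from -0.08 to 0.19. At such levels a change in a weakly expressed gene could go unseen, so these intervals bound the change in signal and not in transcript.

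The E-type cyclins gave mixed readings. CCNE1 at 213523_at read 9.48, 9.75 and 9.92 with scrambled siRNA and 9.29, 9.53 and 9.92 with LEF1 siRNA. It was lower in batches 1 and 2, level in batch 3, and its difference of -0.14 did not pass (95% interval with batch as block -0.27 to -0.0042, limma adjusted p = 0.272). A dim CCNE1 probe set, 242105_at, differed by 0.05. CCNE2 was read by a pair of bright probe sets, of which 211814_s_at fell and 205034_at did not pass. At 211814_s_at it read 9.76, 9.39 and 9.96 with scrambled siRNA and 9.54, 8.91 and 9.63 with LEF1 siRNA. It fell there by 0.34, with 78.9% of the signal left (interval with batch as block -0.48 to -0.21, limma adjusted p = 0.00477; 0.800 without block). At 205034_at CCNE2 read 10.28, 9.63 and 10.24 and then 10.31, 9.65 and 10.56, a difference of 0.12 with an interval of -0.02 to 0.27 (limma adjusted p = 0.396). Both probe sets were lowest in batch 2 in each group. The difference at 205034_at exceeded that at 211814_s_at by 0.25, 0.50 and 0.65 in batches 1, 2 and 3.

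CCNA2, the cyclin A2 gene, had the largest fall among the 21 probe sets. At 203418_at it read 10.90, 11.07 and 11.15 with scrambled siRNA and 10.67, 10.26 and 10.48 with LEF1 siRNA. Every LEF1 siRNA culture was below every scrambled siRNA culture. The batch differences were -0.24, -0.80 and -0.67, and the mean fall of 0.57 left 67.4% of the signal (interval with batch as block -0.75 to -0.39, limma adjusted p = 0.00141; 0.170 without block). The other CCNA2 probe set, 213226_at, did not pass. It read 10.82, 10.49 and 10.89 and then 10.96, 10.45 and 10.70, higher in batch 1 and lower in batches 2 and 3. Its difference of -0.03 had an interval of -0.18 to 0.11. The gap between both probe sets was -0.37, -0.76 and -0.48 by batch.

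CCNF, the cyclin of the ubiquitin ligase, was lower at both of its probe sets in all 3 batches. At 204827_s_at it read 7.93, 8.21 and 8.06 with scrambled siRNA and 7.62, 7.69 and 7.73 with LEF1 siRNA, without overlap. The mean level of 204827_s_at was at percentile 73.4, below that of the fibroblast marker COL1A1. How much of its signal is background was not tested. CCNF fell there by 0.39, with 76.5% of the signal left (interval with batch as block -0.52 to -0.26, limma adjusted p = 0.00191; 0.193 without block). Its brighter probe set, 204826_at, read 9.44, 9.50 and 9.72 and then 9.24, 9.30 and 9.62. The difference of -0.17 did not pass (interval with batch as block -0.29 to -0.04, limma adjusted p = 0.118), though it did after quantile normalization and after cyclic loess (limma adjusted p = 0.0340 and 0.0465 with batch as block).

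The B-type cyclins of mitosis were lower at their brightest probe sets in every batch. CCNB2 at 202705_at read 11.69, 11.41 and 11.83 with scrambled siRNA and 11.49, 11.06 and 11.53 with LEF1 siRNA, with overlap between groups because batch 2 was low in both. It fell by 0.28, leaving 82.2% of the signal (interval with batch as block -0.41 to -0.16, limma adjusted p = 0.0103; 0.736 without block). The remaining CCNB2 probe sets, 232764_at and 232768_at, were dim and differed by -0.06 and 0.05. CCNB1 at 214710_s_at read 11.59, 11.52 and 11.55 and then 11.46, 11.23 and 11.44, without overlap. Its difference of -0.17 did not pass (interval with batch as block -0.30 to -0.05, limma adjusted p = 0.119). At 228729_at CCNB1 differed by 0.03, with batch differences of -0.03, 0.28 and -0.16 and an interval of -0.13 to 0.19. Batch 2 thus gave this gene both its largest fall and its largest rise, at different probe sets.

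**Figure D3:**
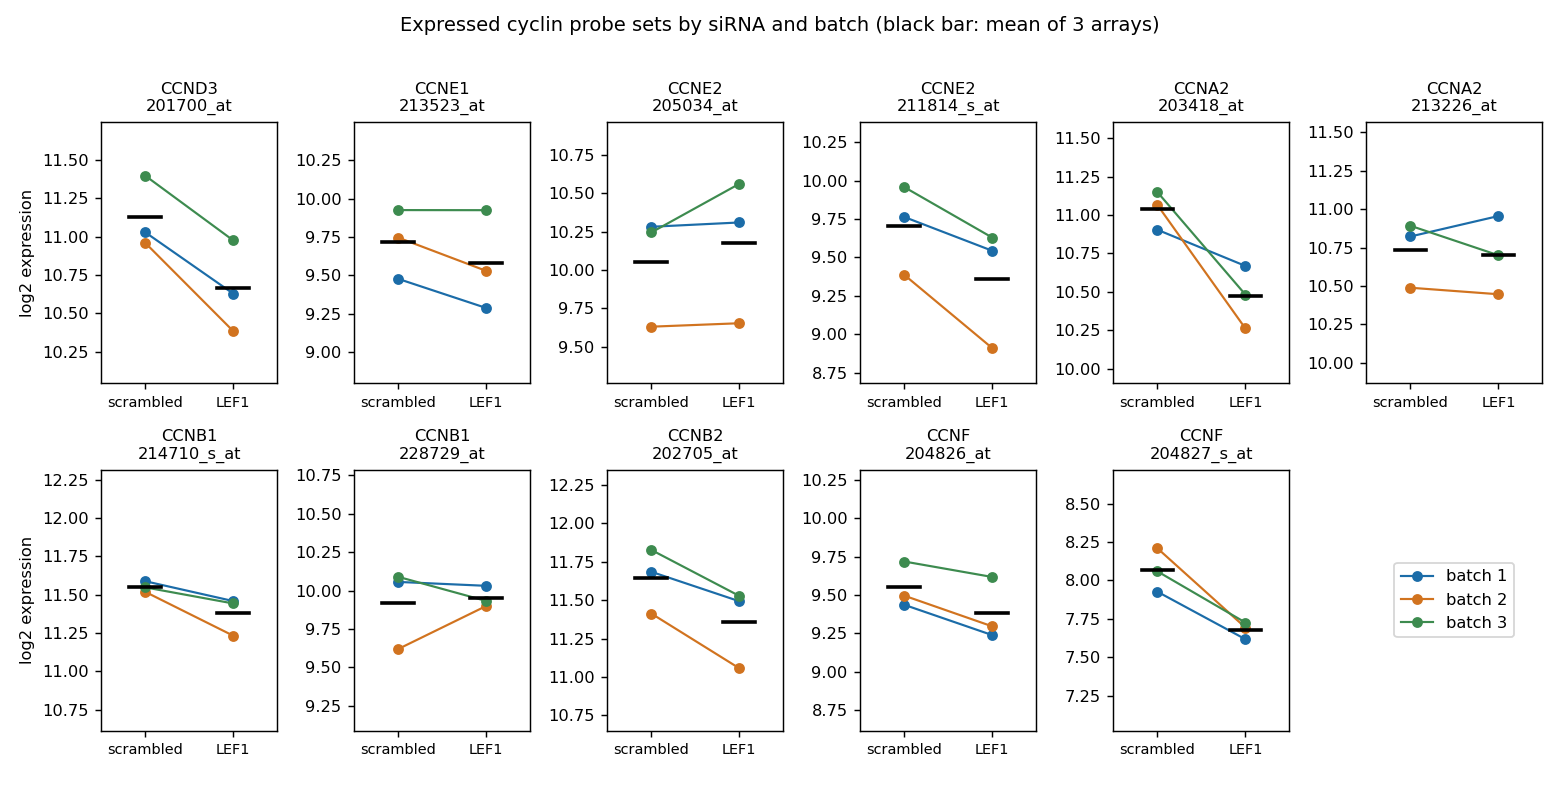
Log2 expression on each array at the 11 cyclin probe sets above percentile 60 of all levels, with scrambled siRNA and LEF1 siRNA; lines join the cultures of 1 batch, black bars are means of 3 arrays, and every panel spans the same log2 range. Lines of CCND3, CCNE2 at 211814_s_at, CCNA2 at 203418_at, CCNB2 and CCNF all slope down, whereas those of CCNA2 at 213226_at and CCNB1 at 228729_at differ in direction between batches.

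In each of the 5 genes with a fallen probe set, another probe set of the same gene did not pass. For 6 genes whose 2 brightest probe sets both lay above the median level, the brighter one's difference was set against the dimmer one's. That gap averaged -0.54 ± 0.20 (SD over 3 batches) for CCNA2, -0.51 ± 0.14 for CCND3, -0.22 ± 0.079 for CCNB2 and -0.21 ± 0.32 for CCNB1. It averaged 0.46 ± 0.20 for CCNE2 and 0.22 ± 0.10 for CCNF, where the dimmer probe set was the one that fell. The gap kept its sign in 3 of 3 batches for 5 of the 6 genes, all but CCNB1. These 5 are the genes with a fallen probe set. The gap reuses the batch values behind those calls, so its constant sign largely follows from them and is no separate support. By exact sign changes of the 3 batch values, 2-sided, each of these 5 gave p = 0.25, the smallest this design allows, or 0.30 after Benjamini-Hochberg adjustment over 6 pairs. In CCND3 and CCNB2 the dimmer probe set lay at percentiles 55.5 and 50.1 of all levels, close to the median. Differences are compressed there, so the gaps of both genes may mostly repeat the fall at the brighter probe set. Which stretch of each transcript a probe set reads is not given in the sources used here.

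The 5 probe sets that fell did so most in batch 2 and least in batch 1, in 5 of 5. LEF1 itself fell least in batch 2 at 2 of its 3 probe sets, 221558_s_at (-2.49) and 221557_s_at (-0.24), and most in batch 2 at 210948_s_at (-1.92). The median difference over all probe sets was 0.0013, 0.033 and 0.0048 in batches 1, 2 and 3, on values whose normalization is not given in the sources used here. Without batch 2, CCNB2 and CCNE2 no longer passed (differences of -0.25 and -0.27, limma adjusted p = 0.0927 and 0.0571 with batch as block), and CCND3, CCNA2 and CCNF did.

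Genes with a pattern over the 6 arrays like that of CCNA2, CCNB2 or CCND3, the cyclins whose brightest probe set fell, were ranked. Likeness was the root mean square difference of log2 values, each centred on its gene's mean, over 12629 genes above the median level, and the arrays share batch and treatment. For CCNA2 the nearest were ATF5, SSRP1 and ALYREF, at 0.068, 0.099 and 0.11, against a median of 0.35 over all genes. CCNB2 was nearest to KIF2C, a mitotic kinesin gene, at 0.039, then to TIPIN and TRBC1 at 0.047 and 0.053, against 0.26. CCND3 was nearest to CDC45, a subunit of the replicative helicase, at 0.054, then to the condensin gene NCAPG2 at 0.057 and the replication gene MCM10 at 0.076, against 0.34. The nearest genes of so many must lie below the median distance, so this ranking names genes and tests nothing. CCND1, which was dim and did not pass, had its nearest gene at 0.011, against 0.11.

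Other genes of the cell cycle are given at the brightest probe set of each gene, with batch as block, where 1.70% of 19775 genes fell, 6.73% rose and the median difference was 0.02. By that reading 3 of the 9 cyclins fell and 0 rose, with a median of -0.17. That median depends on the choice of probe set. Over all 21 cyclin probe sets, 8 of them dim, it was -0.03, against 0.01 over all 54613. For CCNA2 the means of 203418_at and 213226_at were close, at 10.76 and 10.72, and only the former fell. Of 20 measured kinases, partners and inhibitors, 2 fell and 2 rose, with a median of -0.07. CDC25B, a phosphatase that activates CDK1, fell by 0.41 and CKS1B, a small kinase partner, by 0.29, while WEE1, a kinase that inhibits CDK1, rose by 0.35 (limma adjusted p = 0.00209, 0.0111 and 0.00393). CDKN1B, the p27 inhibitor gene, rose by 0.26, but did not pass after quantile normalization, cyclic loess or poly-A spike-in scaling (limma adjusted p = 0.0763, 0.0611 and 0.147). Among 20 regulators of the E2F, retinoblastoma, DREAM and FOXM1 group 5 fell and 2 rose, with a median of -0.07. RB1, the retinoblastoma gene that restrains E2F, rose by 0.44 and its relative RBL2 by 0.36. E2F2 fell by 0.38 and MYBL2, a subunit of the MYB-MuvB complex, by 0.33.

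Of 19 ubiquitin ligase genes and regulators that act on cyclins, 4 fell and 0 rose, with a median of -0.02. These were CDC20, an activator of the anaphase-promoting complex, by 0.36, UBE2S by 0.36, FBXO5 by 0.27 and UBE2C by 0.26. UBE2S and UBE2C encode ubiquitin-conjugating enzymes of that complex and FBXO5 its inhibitor. In the list of G1/S targets of E2F 10 of 23 genes fell and 0 rose, with a median of -0.22, and the smallest p-values were those of CDC45 (-0.40), MCM10 (-0.39), RRM2 (-0.35) and GINS1 (-0.31). In the G2/M and mitosis list 11 of 25 fell and 0 rose, with a median of -0.15, and the smallest p-values were those of PLK1 (-0.33), BUB1 (-0.30), CENPA (-0.32) and AURKB (-0.33). All 23 G1/S genes and all 25 mitosis genes read above the median level, whereas the share over all genes includes dim ones. The largest fall of the mitosis list was in MKI67 (-0.50), the gene of the proliferation marker Ki-67, named after its values were seen, with differences of -0.86, -0.63 and -0.02 in batches 1, 2 and 3. Without block 0 of the 125 genes in these lists and the next passed in limma, against 0.0253% of all genes, and 31 had an unadjusted p under 0.05, against 9.89% of all genes.

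The 18 other cyclin family genes, most of which act in transcription or have roles outside the division cycle, had a median difference of 0.09. With batch as block 1 fell and 3 rose, against 1.70% and 6.73% of all genes. CCNYL1 rose by 0.36 and CCNT2, a partner of the elongation kinase CDK9, by 0.34. CCNG1, a p53 target, rose by 0.26 and did not pass under poly-A spike-in scaling (limma adjusted p = 0.118). CCNA1, the second A-type cyclin, fell by 0.32, from 6.76 ± 0.10 to 6.44 ± 0.08, below the median level. Under poly-A spike-in scaling the list's median turned to -0.03, with 2 lower and 2 higher, where 13.9% of all genes fell and 2.75% rose. No test of the difference between this list and the 9 cyclins was made.

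**Figure D4:**
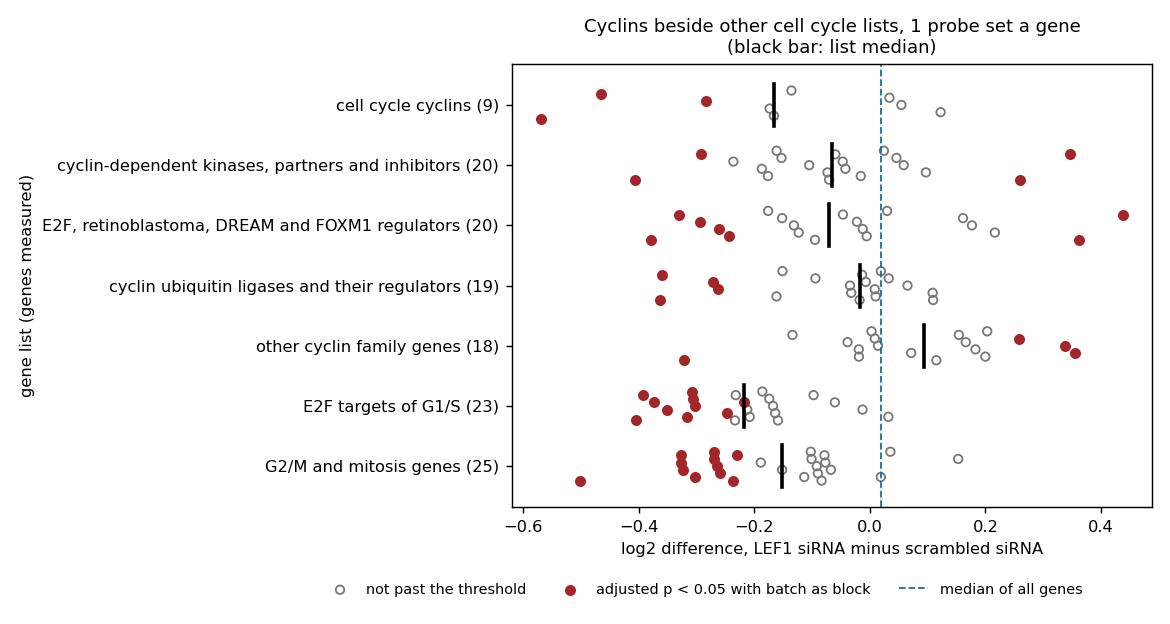
Log2 differences, LEF1 siRNA minus scrambled siRNA, at the brightest probe set of each gene for the 9 cyclins and 6 related lists; filled points passed with batch as block, black bars are list medians and the dashed line is the median of 0.02 over all genes. The cyclin median of -0.17 lies near the mitosis list at -0.15, and the other cyclin family genes centre at 0.09 on the deposited scale.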

How the data were processed

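Biotinylated cRNA was prepared from total RNA with an Affymetrix 3' IVT kit, per the labels' protocols. The authors deposited 1 log2 value per probe set and array, a scale read from the range of the values. How they corrected background, normalized and summarised is not given in the sources used here. Array medians lay between 6.89 and 6.96, and 6 arrays limit the precision.

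Without 62 control probe sets, 54613 were tested, of which 41091 named 1 gene in the platform annotation. The tests were limma 3.58.1 fits (R 4.3.3, with the data.table package at 1.17.8), one without block and one with batch as block. P-values are 2-sided and Benjamini-Hochberg adjusted over all 54613, with a threshold of 0.05. The batch label pairs the cultures, and within a batch their deviations from group means had correlations of 0.477, 0.493 and 0.621. The blocked fit had only 2 residual against 12.0 prior degrees of freedom and so depends on a spread pooled over probe sets. The design text calls the cultures biological replicates, all of 1 cell line.

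Named were every cyclin and LEF1, up to 4 genes of each list with the smallest p among those that passed, and the 3 genes most like each cyclin whose brightest probe set passed. Members, lists and alternatives were chosen with earlier results of these data known. CDKN2C, ANAPC1 and 1 B cell marker were not analysed here. Alternatives covered the block, scalings (poly-A spike-ins through 24 control probe sets), dim probe sets, eBayes settings, array weights, the threshold and leaving out arrays or batches. Promoter windows are RefSeq's. Plots used matplotlib 3.10.9 and Python 3.11.15.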

Additional observations from a re-analysis of the deposited data

How the results depend on the processing

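With batch as block, CCND3, CCNA2 and CCNF at their fallen probe sets passed under 11 of 11 alternatives, with differences between -0.59 and -0.41, -0.74 and -0.45, and -0.51 and -0.32. CCNB2 and CCNE2 passed under 10 of 11, all but leaving out batch 2. Among these alternatives the threshold of 0.1 reuses the same fit and adjusted p, so no pass could be lost under it. The count of fallen cyclin probe sets was 3 without batch 2, where 0.474% of all probe sets fell. It was 5 without batch 1 and without batch 3, against 2.22% and 1.69%. With the poly-A spike-ins as the scale it was 8. That scaling lowers every difference by the same amount, and the median over all probe sets became -0.11. It added CCNB1, CCNE1 and the brighter CCNF probe set, and 14.3% of all probe sets fell under it. Its 8797 calls were 11.0% higher, against 75.2% of 3328 on the deposited scale, 66.2% with equal medians, 56.2% with quantile and 60.1% with cyclic loess normalization. Under it 20 of 23 G1/S genes and 20 of 25 mitosis genes fell, against 13.9% of all genes. Of the kinases, partners and inhibitors, 5 fell and 1 rose after quantile normalization, 4 and 1 after cyclic loess, and 10 and 1 with the poly-A spike-ins. Of all genes 2.88%, 2.57% and 13.9% fell in these settings. Leaving out a batch gave between 1407 and 3880 calls over all probe sets.

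Without block, the replicate block was the one alternative of those run that called any cyclin probe set, with 5. Over all probe sets the replicate block gave 3328 calls, against 10 without. Array weights gave 39, quantile normalization 23, cyclic loess 23, a threshold of 0.1 gave 63, and eBayes with trend and robust settings gave 6. Leaving out 1 array gave between 0 and 8 calls, with 0 without LEF1 siRNA replicate 2.

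Among the 9 brightest probe sets and the 2 others that fell, directions reversed at differences that had not passed. CCND1 went to -0.086 and CCND2 to -0.065 under poly-A spike-in scaling in both fits. With a batch left out and batch as block, CCND2 ran from -0.0085 to 0.12. With 1 array left out and no block, CCNE1 ran from -0.31 to 0.011 and CCNE2 at 205034_at from -0.088 to 0.38. The cause was not tested.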
